A study of Mus musculus with 53 samples.

Results

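The transcripts of 7 ionotropic glutamate receptor subunits were followed in 4 regions of the brain, in SCA3 mice and in wild-type mice. They were chosen by symbol: the NMDA receptor subunit genes Grin1, Grin2a, Grin2b, Grin2c, Grin2d and Grin3a and the delta receptor gene Grid1, which are 7 of the 12372 genes in the count table, and all 7 were measured. The SCA3 mice were hemizygous MJD84.2 mice on a C57BL/6 background, whose transgene is the whole human ATXN3 gene, promoter included, bearing a long CAG repeat. It is active throughout the body and was added to the mouse Atxn3 gene, which these mice keep. The wild-type mice were C57BL/6 mice without the transgene. All mice were male and were killed at 17.5 months of age (74 to 77 weeks). RNA from brainstem, cerebellum, cortex and striatum of 14 mice (8 wild-type and 6 SCA3) gave 53 libraries, 1 per mouse and region. Each group was named by region and genotype, with 8 wild-type and 6 SCA3 libraries for brainstem, 7 and 6 for cerebellum, 7 and 6 for cortex, and 8 and 5 for striatum. The mice stand for 1 transgenic line at 1 age.

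NMDA receptors are tetrameric cation channels that open when glutamate and a coagonist, glycine or D-serine, are bound while the membrane is depolarised. GluN1, encoded by Grin1, is the obligatory subunit. The GluN2 subunits, encoded by Grin2a to Grin2d, bind glutamate and set the kinetics and magnesium block of the channel, and GluN3A, encoded by Grin3a, gives receptors with low calcium permeability. GluD1, encoded by Grid1, is a synaptic organiser that binds cerebellins, which in turn bind presynaptic neurexins. In the adult brain, Grin2c is known for its expression in cerebellar granule cells and Grin2b for its expression in the forebrain.

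Levels are given as CPM, read counts divided by the TMM-normalised size of their library, and a difference was called at a false discovery rate (FDR) under 0.05 over all 12372 genes. The shallowest library held 31680939 counts and the deepest 76703758. The human transgene is not a row of the table, and the row of mouse Atxn3 was called in 1 region, the striatum (58.0 CPM in SCA3 and 46.2 CPM in wild-type, FDR = 0.000116, edgeR likelihood ratio test). The summed level of 6 granule cell markers ran from 2401 to 3684 CPM in the cerebellar libraries and was 363 CPM or less in every other library. Striatal projection neuron markers were less uniform, and their sum ran from 2482 to 10484 CPM in wild-type striatum and from 840 to 4497 CPM over the cortical libraries.

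The 7 genes lie on 7 chromosomes of GRCm38 (GENCODE M21). Grin1 occupies chromosome 2, 25291181 to 25319187 on the minus strand, and Grin2d chromosome 7, 45831883 to 45878378 on the minus strand. Grin2c lies on chromosome 11 (115249169 to 115267243, minus), Grin2a on chromosome 16 (9567898 to 9995560, minus) and Grin2b on chromosome 6 (135713233 to 136173511, minus). Grin3a lies on chromosome 4 (49661611 to 49845744, minus) and Grid1 on chromosome 14 (34820108 to 35583379, plus). Exons of the antisense gene Grin1os share 1307 bases with exons of Grin1, and the libraries carried no strand, so reads there cannot be assigned to either gene. Likewise, exons of Grin2d share 643 bases with exons of the antisense gene Gm45441, which is not a row of the table. Grin1os itself averaged 10.8 CPM in wild-type brainstem, 20.2 CPM in striatum, 20.9 CPM in cortex and 23.01 CPM in cerebellum.

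Grin1 had wild-type group means between 223 CPM in brainstem and 334 CPM in cortex, the narrowest span of the 7 transcripts in relative terms. In wild-type brainstem it ranged from 184 to 254 CPM (median 223), in cerebellum from 221 to 323 CPM (median 275), in striatum from 202 to 363 CPM (median 296) and in cortex from 219 to 418 CPM (median 347). Cortex exceeded brainstem by a log2 difference of 0.55 in size (fold of brainstem over cortex 0.68, FDR = 0.000296) and exceeded cerebellum (fold of cerebellum over cortex 0.81, FDR = 0.0293), and striatum exceeded brainstem (fold of brainstem over striatum 0.78, FDR = 0.00758). These region tests used edgeR's quasi-likelihood test with the mouse as a block in the 30 wild-type libraries. The neighbours in the order did not differ by this test: brainstem and cerebellum (FDR = 0.0694), cerebellum and striatum (FDR = 0.367), and striatum and cortex (FDR = 0.212).

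Grin2c was set apart by the cerebellum. In the 7 wild-type cerebellar libraries it ranged from 451 to 860 CPM (median 524), and in the 6 SCA3 libraries from 458 to 724 CPM (median 558). In the other regions it lay between 29.9 and 59.4 CPM in wild-type brainstem, between 51.4 and 106 CPM in cortex and between 62.3 and 115 CPM in striatum, so that no cerebellar library overlapped any other. The cerebellar level was 6.67 times that of cortex (FDR = 1.08e-11) and 6.40 times that of striatum (FDR = 4.99e-12), and brainstem stood at 0.0804 of cerebellum (FDR = 1.05e-13). Brainstem was also below cortex (fold 0.54, FDR = 3.30e-05) and striatum (fold 0.51, FDR = 1.20e-05), whereas cortex and striatum did not differ by this test (fold 0.96, FDR = 0.800).

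Grin2b had its lowest values in the cerebellum, where Grin2c had its highest. It ranged from 3.05 to 14.1 CPM in wild-type cerebellum (median 11.4), from 6.69 to 36.1 CPM in brainstem (median 24.4), from 16.5 to 147 CPM in striatum (median 71.1) and from 58.9 to 154 CPM in cortex (median 104). Cerebellum stood at 0.101 of cortex (FDR = 2.16e-06) and at 0.143 of striatum (FDR = 1.27e-05), and brainstem at 2.14 times cerebellum (FDR = 0.0266). Cortex and striatum did not differ by this test (fold 1.41, FDR = 0.377). The wild-type striatal libraries were widely spread: 16.5, 26.1, 31.0 and 35.1 CPM in 4 mice and 107, 111, 123 and 147 CPM in the other 4. The 5 SCA3 striatal libraries, at 62.2, 70.8, 74.4, 87.2 and 134 CPM, lay between or within these levels.

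Grin2a differed least clearly between regions. Its wild-type medians were 7.98 CPM in brainstem, 9.37 CPM in cerebellum, 9.73 CPM in striatum and 12.3 CPM in cortex. The ranges of all 4 regions overlapped. Of the 6 region pairs, brainstem against cortex was the one called in wild-type mice (fold 0.54, FDR = 0.0154), and in SCA3 mice 4 of 6 pairs were called.

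Grin2d and Grin3a were both highest in the brainstem. Grin2d, a subunit of slowly deactivating receptors in the brainstem, diencephalon and interneurons, ranged from 30.1 to 53.2 CPM in wild-type brainstem (median 47.2), against medians of 21.4 CPM in cerebellum, 24.3 CPM in cortex and 26.4 CPM in striatum. Brainstem exceeded cerebellum 2.18-fold (FDR = 5.72e-05), cortex 1.63-fold (FDR = 0.00528) and striatum 1.62-fold (FDR = 0.00427), and none of the 3 pairs among the other regions passed (FDR = 0.0707 to 0.968). Grin3a ranged from 74.0 to 110 CPM in wild-type brainstem (median 95.8), with medians of 72.1 CPM in cortex, 49.0 CPM in striatum and 37.4 CPM in cerebellum. Brainstem Grin3a was 1.55 times cortex (FDR = 0.0148), 2.10 times striatum (FDR = 0.000130) and 2.45 times cerebellum (FDR = 1.76e-05). In the order of levels, cortex and striatum (FDR = 0.120) and striatum and cerebellum (FDR = 0.369) did not differ by this test.

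Grid1 was lowest in the cerebellum. Wild-type values ran from 21.2 to 30.4 CPM in cerebellum (median 25.4), from 41.8 to 61.0 CPM in brainstem (median 50.4), from 63.3 to 82.5 CPM in cortex (median 75.5) and from 66.3 to 97.2 CPM in striatum (median 79.0). The ranges of cerebellum, brainstem and cortex were separate, and those of cortex and striatum overlapped. Brainstem was 2.03 times cerebellum (FDR = 5.36e-10) and 0.72 of cortex (FDR = 2.53e-05), and cortex and striatum did not differ by this test (FDR = 0.219).

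**Figure D1:**
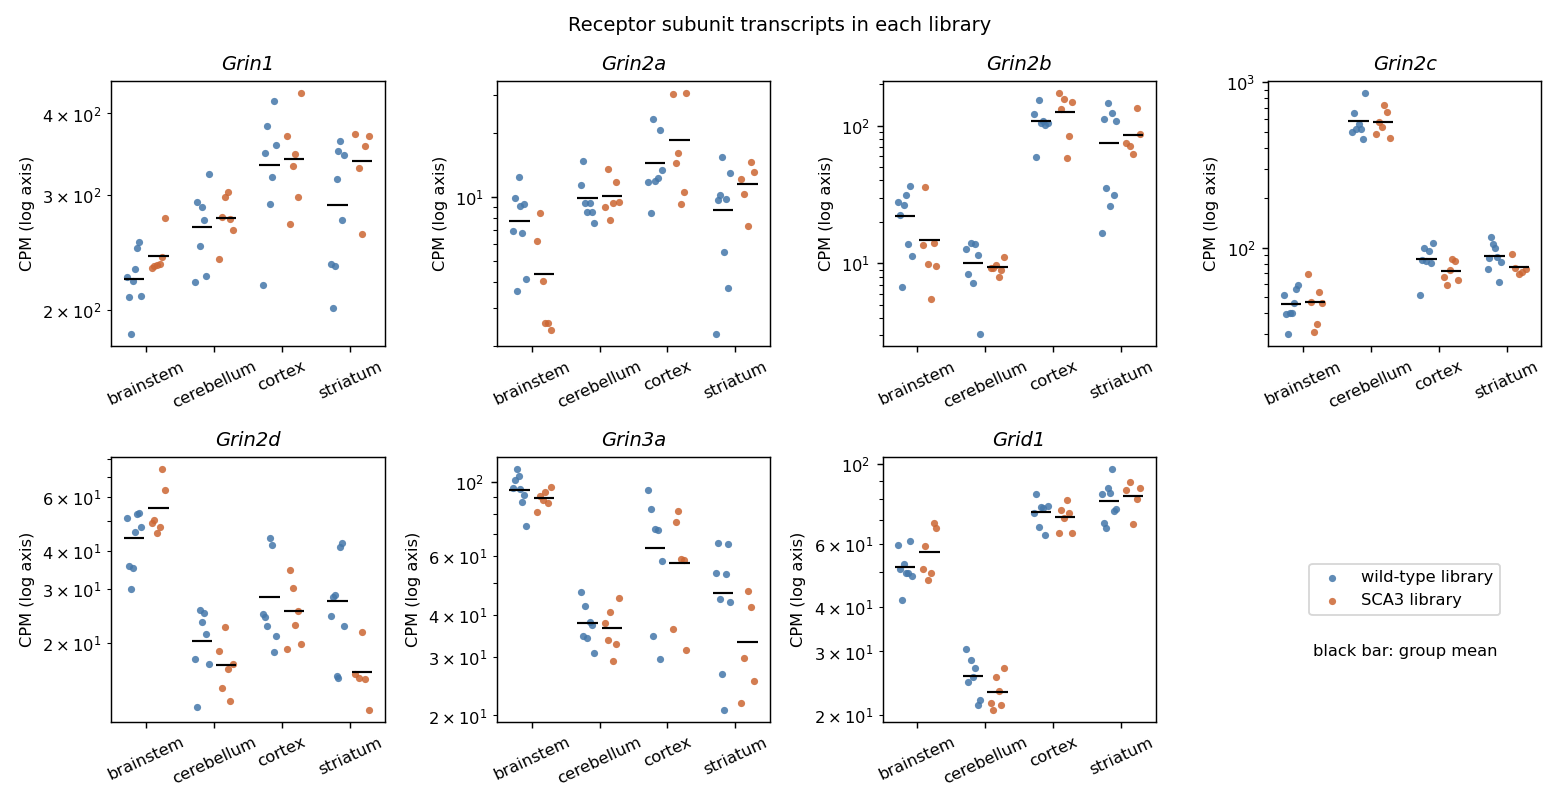
Normalised CPM (log axis) of the 7 transcripts in each of the 53 libraries, by region and genotype, with black bars for group means. Grin2c stands highest in cerebellum, Grin2d and Grin3a in brainstem, and Grin2b and Grid1 in cortex and striatum, with wild-type and SCA3 libraries overlapping in every region.

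Over the 42 combinations of a member and a region pair, 26 were called in wild-type mice, 32 in SCA3 mice and 25 in both, all 25 in the same direction. The background was high, since regions differ in most genes. In wild-type mice 73.5% of all genes were called between brainstem and cerebellum, 65.9% between brainstem and cortex, 66.7% between brainstem and striatum, 69.7% between cerebellum and cortex, 70.4% between cerebellum and striatum and 33.1% between cortex and striatum. In SCA3 mice the same pairs gave 74.8%, 65.4%, 71.1%, 72.3%, 72.8% and 43.2%. Between brainstem and cortex 7 of 7 members were called in wild-type mice, and between cortex and striatum none were, with no member past the threshold and Grin2a the nearest (FDR = 0.0619, unadjusted p = 0.0222). In SCA3 mice, Grin2d (fold of cortex over striatum 1.61, FDR = 0.00654) and Grin3a (1.73, FDR = 0.00613) were called between cortex and striatum.

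Levels of different genes can be compared only per length of transcript, which was taken here from the RefSeq-linked GENCODE model of each gene. On this scale Grin1 reached 78.7 ± 15.4 CPM per kb in wild-type cortex (SD, n = 7) and 63.2 ± 8.82 in cerebellum (SD, n = 7), and Grin2c reached 119 ± 28.1 CPM per kb in cerebellum (SD, n = 7). In cortex Grin2c stood at 17.5 ± 3.62, Grin2b at 14.3 ± 3.77, Grid1 at 12.8 ± 1.12, Grin3a at 8.56 ± 3.27, Grin2d at 5.19 ± 1.89 and Grin2a at 3.30 ± 1.22 CPM per kb (SD, n = 7 each). The models used by the authors for counting were not used here. The linked model of Grin2a has 4395 bases, of which 4392 are coding, while its longest model has 14634 bases, so the order of the members below Grin1 depends on the length used. With coding lengths the cortical means were 24.2 CPM per kb for Grid1, 24.1 for Grin2b, 23.1 for Grin2c and 19.0 for Grin3a, in the reverse order for Grid1, Grin2b and Grin2c. With the longest models Grin2b fell to 4.46 CPM per kb, below Grin3a (8.49) and Grin2d (5.19).

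The GluN2 transcripts were also expressed as shares of their summed CPM per kb in each library. In wild-type cerebellum Grin2c made up 93.9 ± 1.74% (SD, n = 7). In brainstem Grin2c and Grin2d led with 42.2 ± 4.77% and 36.9 ± 4.07% (SD, n = 8), and in cortex Grin2c and Grin2b led with 43.6 ± 7.69% and 35.4 ± 7.19% (SD, n = 7). Wild-type striatum had 53.7 ± 12.9% Grin2c, 25.6 ± 13.8% Grin2b, 15.4 ± 7.57% Grin2d and 5.27 ± 1.89% Grin2a (SD, n = 8). The order in cortex depended on length: Grin2b was ahead with coding lengths (41.6% against 40.3% Grin2c), and with the longest transcripts Grin2c took 61.9% and Grin2d (18.5%) passed Grin2b (16.04%). In striatum, too, Grin2d (19.3%) passed Grin2b (10.9%) with the longest transcripts. The longest models of Grin2a and Grin2b (14634 and 24060 bases) far exceed the linked ones (4395 and 7484 bases). Reads outside the authors' models were not counted, and no choice of length corrects for that. The rank of Grin2a and Grin2b among the GluN2 transcripts is therefore uncertain.

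**Figure D2:**
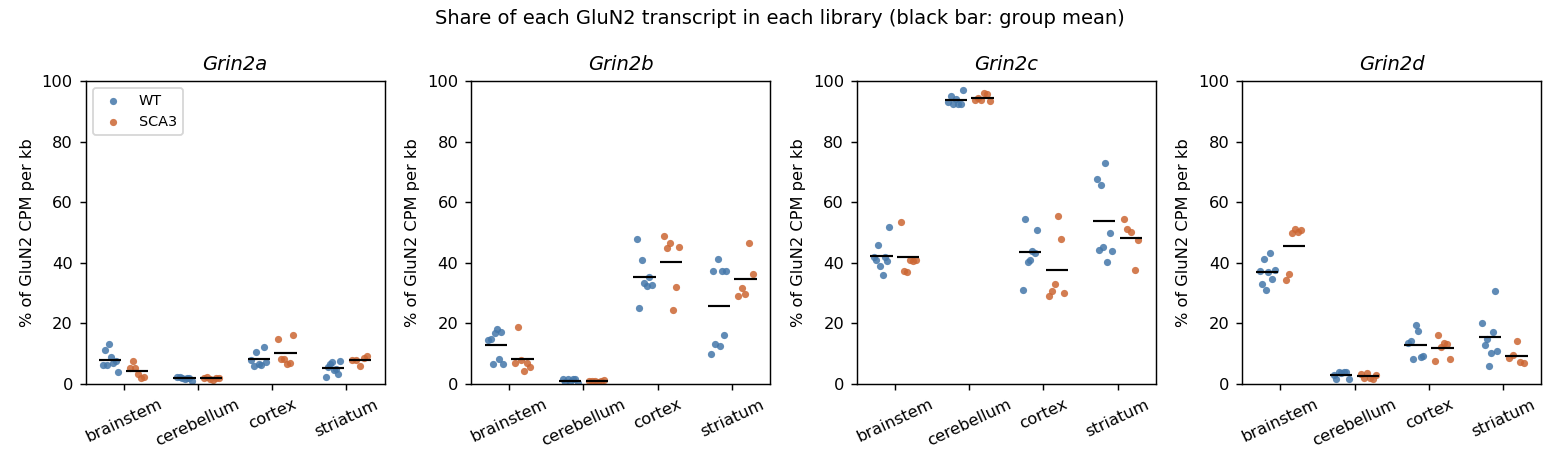
Share of each GluN2 transcript in the summed CPM per kb of Grin2a, Grin2b, Grin2c and Grin2d (y axis, percent) in each library, with black bars for group means. Grin2c takes 92.5% to 97.1% of the sum in wild-type cerebellum, and Grin2d takes its largest shares in brainstem.

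The comparison of SCA3 with wild-type mice asked whether the subunits changed with the transgene in any region. Of 28 combinations of a member and a region, 1 was called: Grin2d was lower in SCA3 striatum. The edgeR likelihood ratio test was fitted on all 53 libraries. In striatum 7.54% of all genes were called (2.07% higher and 5.47% lower in SCA3). In brainstem 1.92% were called (0.776% higher, 1.15% lower), in cerebellum 0.0647% (0.0404% higher, 0.0242% lower) and in cortex 0.154% (0.121% higher, 0.0323% lower). Read against that background, 1 of 7 members called in striatum is no result about the subunits as a group.

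Grin2d in the 8 wild-type striatal libraries ranged from 15.3 to 42.6 CPM with a median of 26.4, and the 5 SCA3 libraries held 12.1, 15.2, 15.3, 15.8 and 21.8 CPM. The groups overlapped, because 2 wild-type libraries (15.3 and 15.6 CPM) lay among the SCA3 values, and all 5 SCA3 libraries were below the wild-type median. The fold of SCA3 over wild-type was 0.59 (95% interval 0.44 to 0.79), a log2 fold change of -0.77 with a standard error of 0.22 (FDR = 0.0146, edgeR likelihood ratio test). The call was lost with the striatal libraries fitted alone (log2 fold change -0.77, FDR = 0.136), with limma-voom (-0.71, FDR = 0.0536) and with mouse as a block in limma-voom (-0.72, FDR = 0.0531). Those fits called 88, 696 and 713 of all genes in striatum, where the likelihood ratio test called 933. Over the 29 alternatives the FDR ran from 0.00231 to 1.000, and leaving out SCA3 mouse 9083515 gave 0.0989.

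Markers of tissue composition also differed by value between the genotypes in the striatum. All 10 measured striatal projection neuron markers were higher in SCA3 striatum (median log2 fold change 0.45, 0 called), and all 9 measured thalamus markers were lower (median -1.29, 4 called), against a median of -0.0031 over all genes. The 6 measured interneuron markers had a median of -0.34 (2 higher, 4 lower, 0 called). All 10 astrocyte markers were lower (median -0.34, 5 called), as were all 9 mature oligodendrocyte markers (median -0.29, 3 called). In CPM, the projection neuron sum was 2482 to 10484 in wild-type and 6423 to 9557 in SCA3 libraries, and the thalamic sum 220 to 2762 and 219 to 497. Neither sum passed a test between genotypes (adjusted p = 0.514 and 0.614, exact two-sided permutation test). The 2 wild-type libraries with the lowest Grin2d (15.3 and 15.6 CPM) had the 2 highest projection neuron sums (10181 and 10484 CPM). The 2 libraries with the highest thalamic sums (2762 and 1652 CPM) held 28.8 and 28.3 CPM of Grin2d, below the highest wild-type values of 41.3 and 42.6 CPM.

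With a marker score as covariate in the striatal libraries, the Grin2d log2 fold change was -0.65 for thalamic markers (FDR = 0.261), -0.66 for interneuron markers (FDR = 0.247) and -0.40 for projection neuron markers (FDR = 1.000). Without the 2 libraries of highest thalamic score it was -0.75 (FDR = 0.0587). The interneuron and projection neuron scores were added after seeing the data. Since the call was already lost without a score, the loss of the call with a score shows nothing about that score. The part of tissue composition in the result was not tested, and in bulk tissue fewer cells of a type and less RNA per cell cannot be told apart.

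**Figure D3:**
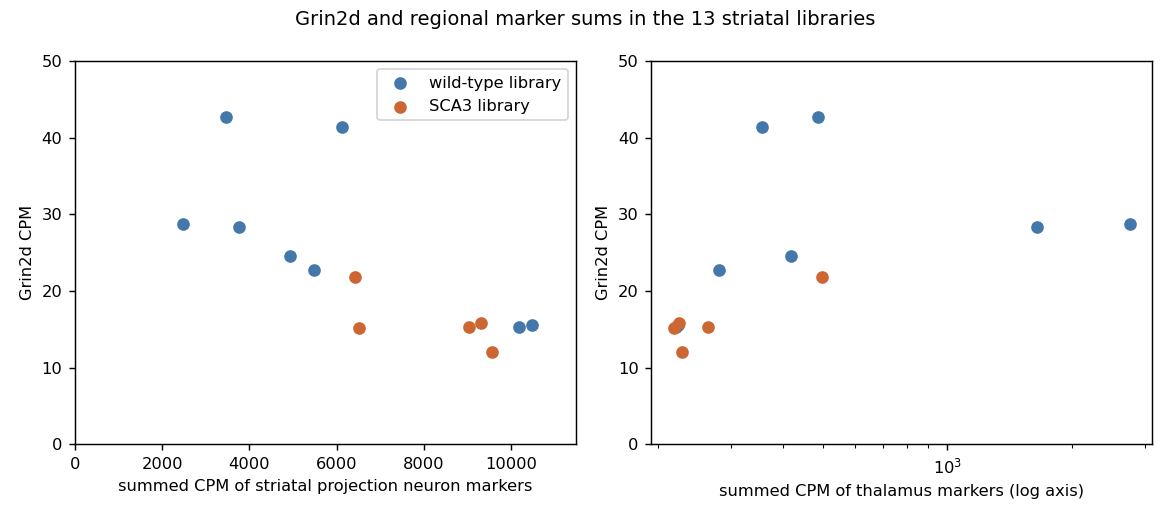
Grin2d CPM (y axis) against the summed CPM of striatal projection neuron markers (left) and of thalamus markers (right, log axis) in the 13 striatal libraries, coloured by genotype. The 5 SCA3 libraries lie at 12.1 to 21.8 CPM of Grin2d and at projection neuron sums of 6423 CPM or more, where 2 wild-type libraries with 15.3 and 15.6 CPM also lie.

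In the other regions Grin2d was not called. It was higher by value in SCA3 brainstem (55.1 ± 11.2 against 44.1 ± 9.03 CPM, SD, n = 6 and 8, log2 fold change 0.32, FDR = 0.503). The SCA3 libraries of mice 9083514 and 9083515 held 74.4 and 63.2 CPM, and the other 4 held 45.9 to 50.4 CPM, within the wild-type range. Those 2 libraries also had the highest thalamus marker sums of the SCA3 brainstem libraries (916 and 1036 CPM, against 559 to 732 CPM), while the wild-type library with the highest sum (1048 CPM) held 51.1 CPM of Grin2d. Without mouse 9083514 the log2 fold change in brainstem was 0.21 (FDR = 0.954). In the brainstem libraries alone the log2 fold change was 0.32 without a covariate (FDR = 0.255). There it was 0.23 with the thalamic score as covariate (FDR = 0.317) and 0.014 with RIN (FDR = 0.998). In cerebellum the log2 fold change was -0.26 (FDR = 1.000) and in cortex -0.15 (FDR = 1.000). Tested over all regions together, Grin2d was the 1 member with a genotype effect in any region (FDR = 0.0497), where 4.73% of all genes were called. This call sat at the threshold and was kept in 5 of 23 alternatives, with FDR from 0.0130 to 0.315. For dependence of the effect on region, no member was called (Grin2d FDR = 0.212, edgeR likelihood ratio test, where 0.218% of all genes were called), and 2 of 7 members, Grin2d and Grin2a, had an unadjusted p under 0.05, as had 9.09% of all genes. Between brainstem and striatum alone, the Grin2d effect differed by 1.10 on the log2 scale (FDR = 0.0313, 1.71% of all genes called), the single difference past the threshold among 42 combinations of a member and a region pair. The FDR adjusts over genes but not over region pairs, and this comparison was added after seeing the data. This call was kept in 11 of 23 alternatives and lost with the quasi-likelihood test (FDR = 0.0573), limma-voom without a block (FDR = 0.0732), libraries with RIN of at least 7 (FDR = 0.144) and 8 of 14 left-out mice, among them 9083514 (FDR = 0.118) and 9083515 (FDR = 0.153).

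The brainstem gave its largest genotype value for Grin2a, which did not pass. The 8 wild-type libraries ranged from 3.63 to 12.3 CPM (median 7.98) and the 6 SCA3 libraries from 2.38 to 8.42 CPM (median 3.29), and 5 of 6 SCA3 libraries were below the wild-type median. The log2 fold change was -0.83 with a standard error of 0.32 (FDR = 0.194, edgeR likelihood ratio test). It was called in 1 of 29 alternatives, without SCA3 mouse 7267056 (-1.12, FDR = 0.0463), and its FDR otherwise stayed above the threshold. The RNA integrity number (RIN) was higher in SCA3 brainstem (7.4 to 8.0) than in wild-type brainstem (6.3 to 7.6, adjusted p = 0.0426, exact permutation test, two-sided), and with RIN as covariate the log2 fold change was -0.92 (FDR = 0.189), or -1.28 with the brainstem libraries fitted alone (FDR = 0.115). Grin2b in the same libraries had a log2 fold change of -0.57 (FDR = 0.538).

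Besides Grin2d, Grin3a in the striatum had an unadjusted p under 0.05, as had 23.2% of all genes there and 13.3% in brainstem, so 2 of 7 members in striatum and 1 of 7 in brainstem are near the background. Wild-type libraries ranged from 20.8 to 65.7 CPM (median 49.0) and SCA3 libraries held 21.8, 25.3, 29.8, 42.2 and 47.2 CPM, so the groups overlapped. The log2 fold change was -0.49 with a standard error of 0.23 (FDR = 0.178, edgeR likelihood ratio test). It was -0.23 in libraries with RIN of at least 7 (FDR = 0.720). In the striatal libraries alone it was -0.49 without a covariate (FDR = 0.421). With a score as covariate there it was -0.30 for thalamic markers (FDR = 0.733) and -0.32 for interneuron markers (FDR = 0.669). With the projection neuron score as covariate in the striatal libraries it was -0.0057 (FDR = 1.000).

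For the other combinations the intervals differed in width. Grid1, the most precisely measured member, had 95% intervals of the SCA3 over wild-type fold of 0.97 to 1.25 in brainstem, 0.79 to 1.03 in cerebellum, 0.85 to 1.10 in cortex and 0.90 to 1.18 in striatum. Grin1 had 0.92 to 1.28, 0.87 to 1.22, 0.87 to 1.21 and 0.98 to 1.38 in the same order. The intervals of Grin2a and Grin2b were wide and bounded little: 0.40 to 1.13 for Grin2b in brainstem, 0.68 to 1.99 for Grin2b in cortex, 0.65 to 1.59 for Grin2a in cerebellum and 0.84 to 2.09 for Grin2a in striatum. Cerebellar Grin2c, at 575 ± 102 CPM in SCA3 and 581 ± 138 CPM in wild-type mice (SD, n = 6 and 7), had a fold of 0.99 (95% interval 0.79 to 1.23). In cerebellum and cortex no member had an unadjusted p under 0.05, which 1.66% and 4.07% of all genes had, and quasi-likelihood, DESeq2 and limma-voom tests called 0 members there as well.

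**Figure D4:**
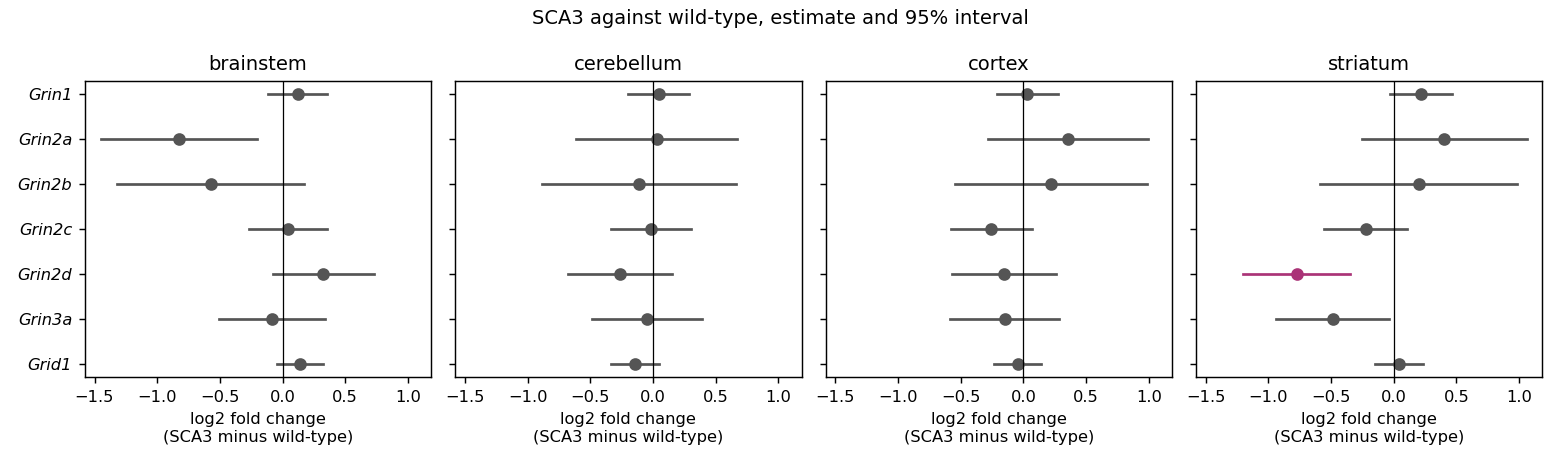
Log2 fold change of SCA3 over wild-type (x axis) with its 95% interval for the 7 transcripts in each region. Grin2d in striatum (-0.77, coloured) is the single called value, and the intervals of Grin2b are the widest in each region.

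The GluN2 shares did not pass a test between genotypes after adjustment over 16 tests. The lowest unadjusted values were Grin2a in striatum (7.94 ± 1.25% in SCA3, n = 5, and 5.27 ± 1.89% in wild-type, n = 8, SD, p = 0.0186, adjusted p = 0.146, exact two-sided permutation test), Grin2a in brainstem (4.35 ± 2.08% and 8.02 ± 3.03%, p = 0.0223, adjusted p = 0.146, exact permutation test) and Grin2d in brainstem (45.5 ± 7.92% and 36.9 ± 4.07%, p = 0.0273, adjusted p = 0.146, exact permutation test). Shares within a library sum to 100%, so they are not independent. The log2 ratio of Grin2a to Grin2b, in CPM per kb with the linked models, differed between genotypes by -0.26 in brainstem, 0.0065 in cerebellum, 0.10 in cortex and 0.046 in striatum (adjusted p = 0.985 in each, exact permutation test over 4 regions). Between regions the wild-type ratio ran from -2.16 ± 0.63 in striatum to 0.86 ± 0.74 in cerebellum (SD, n = 8 and 7). The lead of Grin2a in cerebellum depended on length, since the wild-type means of Grin2a and Grin2b there were 2.26 and 1.35 CPM per kb with the linked models, 2.26 and 2.27 CPM per kb with coding lengths, and 9.93 and 10.1 CPM without length.

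The genes around the receptors were described by 5 lists, to be read against the 7.54% of all genes called in striatum, 1.92% in brainstem and 0.154% in cortex. Projection neuron markers were higher and thalamus markers lower by value in the same SCA3 striatal libraries. Their part in the list values in striatum was not tested. Among 17 postsynaptic scaffold genes, 2 were called, both higher in SCA3 striatum: Dlg1, which encodes SAP97 (log2 fold change 0.33, FDR = 0.00716), and Dlg2, which encodes PSD-93 (0.26, FDR = 0.0441). The list median in striatum was 0.17, and 2.07% of all genes were called higher there. The list was chosen with earlier results of these data known, so 2 of 17 is no result about the list. Among 19 signalling partners, Fyn, a kinase that phosphorylates GluN2 subunits, was higher in brainstem (0.24, FDR = 0.000239). The sum of 6 oligodendrocyte precursor markers was also higher by value there, without overlap (558 to 634 CPM in SCA3 and 380 to 548 CPM in wild-type, adjusted p = 0.0519, exact permutation test). Of these 6 markers, 5 were higher (2 called) and 1 lower. All 9 mature oligodendrocyte markers were lower in brainstem (1 called). The part of these markers in the Fyn value was not tested. Camk2d, a calcium/calmodulin-dependent kinase, was lower in striatum (-0.81, FDR = 0.0427). The list medians were -0.092 in brainstem and 0.082 in striatum. Among 13 trafficking and regulatory genes, 2 were lower in striatum, where 5.47% of all genes were lower: Ephb2, an ephrin receptor that binds NMDA receptors (-0.70, FDR = 0.0426), and Lrp8, a reelin receptor (-0.44, FDR = 0.000942), with a list median of -0.047.

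Of the 11 coagonist genes, 8 were measured, and 4 were called in striatum, against 7.54% of all genes. This list, too, was chosen with earlier results of these data known, so its share is no test of the list. Slc6a9, the glycine transporter GlyT1 (-0.54, FDR = 0.00961), Slc7a10, a transporter of D-serine and other small neutral amino acids (-0.45, FDR = 0.00853), and Slc1a4, another neutral amino acid transporter (-0.27, FDR = 0.0471), were lower. Psat1, an enzyme of serine synthesis, was higher in striatum (0.40, FDR = 0.00922), brainstem (0.48, FDR = 0.000826) and cortex (0.46, FDR = 0.0125). The list medians were -0.018 in brainstem, -0.050 in cortex and -0.022 in striatum. Astrocyte markers, 10 of which were measured, were lower in value in 10 of 10 cases in striatum (median -0.34, 5 called) and in brainstem (median -0.42, 6 called), and their part in the coagonist values was not tested. Of the 7 delta receptor partners, the cerebellins and neurexins, none was called in any region, and their medians ran from -0.14 in striatum to 0.14 in brainstem.

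Differences between regions enter the correlations over all 53 libraries, and the coefficients are descriptions over libraries that share mice and regions. Listed here are the genes whose log2 CPM followed each member most closely over the 53 libraries. They were Ncdn, Tenm4 and Pcdh10 for Grid1 (Pearson r = 0.98, 0.98 and 0.97), Ccdc28b, Polr1b and Sbk1 for Grin2c (0.98 each), Kctd16, Ttc19 and Mmp16 for Grin2b (0.95, 0.93 and 0.93) and Map3k10, Jph3 and Rnf126 for Grin1 (0.92, 0.92 and 0.91). For Grin3a they were Trpc5, Igsf3 and Tspan6 (0.93, 0.93 and 0.92), for Grin2d B630019K06Rik, Upp2 and Spag4 (0.94, 0.93 and 0.93), and for Grin2a Dgkh, Mib1 and Arfgef3 (0.85, 0.82 and 0.80). After removal of the group means, Grin2d was closest to B630019K06Rik, Comtd1 and Unc119 (0.86, 0.86 and 0.85). Among the members themselves, the deviations from group means of Grin2a and Grin2b went together most (r = 0.76), followed by Grin2d and Grin3a (0.57), while those of Grin1 and Grin3a were opposed (r = -0.65).

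**Figure D5:**
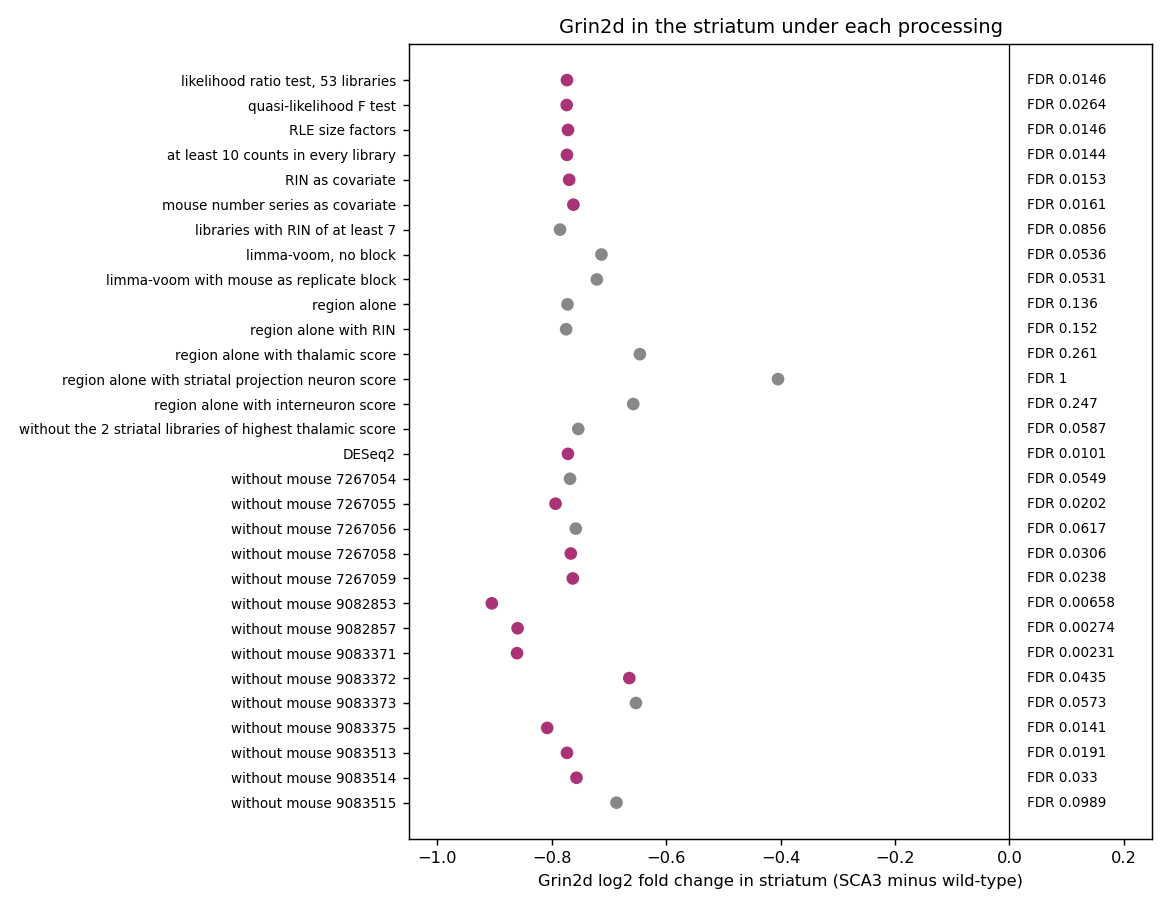
Log2 fold change of Grin2d in striatum (x axis) in the likelihood ratio test over 53 libraries and in 29 alternatives, coloured where the FDR was under 0.05 and grey otherwise, with the FDR printed at the right. The value stays below 0 throughout, from -0.90 to -0.40, and 16 of the 29 alternatives are coloured.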

How the data were processed

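RNA of 4 brain regions was sequenced from poly-A selected libraries without strand information. The authors trimmed reads with cutadapt 1.10, aligned them to GRCm38 with STAR 2.3.0e, keeping unique alignments, and used HTSeq 0.6.1 on RefSeq genes for counting. The deposited values are raw read counts of genes that averaged over 4 CPM (lowest mean 4.07). No 2 libraries held identical values. Versions are those of the submitters' processing notes.

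The 7 members and all lists were chosen with earlier results of these data known. Groups came from the labels. Counts were normalised by TMM and fitted with edgeR 4.0.16 in R 4.3.3 on 53 libraries and 8 groups, with likelihood ratio tests per region, over regions together and for region dependence, and Benjamini-Hochberg adjustment over 12372 genes. Log2 CPM used a prior count of 2. Region differences used edgeR's quasi-likelihood test with mouse as a block, since libraries of 1 mouse share an animal. The mean correlation of deviations of libraries from the same mouse was 0.0904 to 0.186 over region pairs. Shares, ratios, RIN and marker sums used exact two-sided permutation tests. Lengths came from GENCODE M21. Fits were tested on simulated data. Alternatives used limma 3.58.1 and DESeq2 1.42.0, another normalisation, a minimum of 10 counts, RIN, mouse number series, region-wise fits, marker scores and leaving out each mouse. Marker scores other than the thalamic one, the fit without 2 striatal libraries, the longest transcripts and the effect difference between brainstem and striatum were added after seeing the data.

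The genes named are the 7 members, the 3 genes most correlated with each (for called members also by deviations from group means) and called list genes.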

Additional observations from a re-analysis of the deposited data

Results flagged for a closer look

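In 2 of the 56 groups of a member, region and genotype, 1 library stood apart from the rest by Dixon's criterion, which chance meets in about 1 group in 20. Grin1 in SCA3 brainstem was 277 CPM in mouse 9083515, against 232 to 241 CPM in the other SCA3 libraries. Grin2c in wild-type cortex was 51.4 CPM in mouse 7267055, against 81.1 to 106 CPM in the others.

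The SCA3 effect on Grin2d differed between brainstem, where the log2 fold change was 0.32, and striatum, where it was -0.77, by 1.10 on the log2 scale (FDR = 0.0313, edgeR likelihood ratio test). This comparison was added after seeing the data, and its FDR adjusts over genes but not over region pairs. The call was kept in 11 of 23 alternatives, and those that lost it include the quasi-likelihood test (FDR = 0.0573) and leaving out mouse 9083514 (FDR = 0.118) or 9083515 (FDR = 0.153), whose brainstem libraries had the highest Grin2d levels (74.4 and 63.2 CPM) and thalamus marker sums (916 and 1036 CPM) among the SCA3 brainstem libraries. The joint test over the 4 regions did not call it (FDR = 0.212).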

How the results depend on the processing

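The number of region differences called in wild-type mice was 26, with 24 to 27 called without single mice and 26 or 27 under the other alternatives, 26 with no replicate block. The counts of called members in cerebellum and cortex, the region dependence, the GluN2 shares and the Grin2a to Grin2b ratio stayed at 0 in every alternative run. Of 783 alternative values for members not called, 1 became called (brainstem Grin2a without mouse 7267056), and 38 had the other sign, so the called members in brainstem were 0 to 1 without single mice.

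For Grin2d in striatum, the called members there fell from 1 to 0 with RIN of at least 7 (log2 fold change -0.79, FDR = 0.0856), limma-voom without a block (-0.71) and with mouse as replicate block (-0.72), striatum alone (-0.77), also with RIN (-0.77, FDR = 0.152), with the thalamic (-0.65), projection neuron (-0.40) or interneuron score (-0.66), and without the 2 libraries of highest thalamic score (-0.75). Without single mice the log2 fold change was -0.90 to -0.65 with 0 to 1 member called. The call was lost without 7267054 (FDR = 0.0549), 7267056 (0.0617), 9083373 (0.0573) or 9083515 (0.0989). Calls over all genes in striatum fell in these settings too, from 933 to 88 with striatum alone and 139 with RIN of at least 7. They were 34 with the projection neuron score, 289 without the 2 thalamic libraries and 297 without mouse 9083515.

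The any-region call of Grin2d (FDR = 0.0497) became 0 members with the quasi-likelihood test (0.0999), RLE (0.0508), RIN (0.0703), number series (0.0549), RIN of at least 7 (0.214), limma-voom (0.163), mouse as replicate block (0.153) and without the 2 thalamic libraries (0.109). Without single mice its FDR was 0.0130 to 0.315, with 0 to 1 member called, lost for mice 7267054, 7267055, 7267056, 7267058, 7267059, 9083372, 9083373, 9083513, 9083514 and 9083515.

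The Grin2d difference between brainstem and striatum missed the threshold with the quasi-likelihood test (1.10, FDR = 0.0573), RIN of at least 7 (1.04), limma-voom without a block (1.03) and without the 2 thalamic libraries (1.08), but passed with mouse as replicate block (1.03, FDR = 0.0371). Without single mice it was 0.97 to 1.27, lost for mice 7267054, 7267056, 7267058, 7267059, 9083372, 9083373, 9083514 and 9083515. The cause of these changes was not tested.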
